A study of Homo sapiens with 64 samples.

Results

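The alpha-arrestin genes ARRDC1, ARRDC2, ARRDC3 and ARRDC4, their relative TXNIP, and the glucose-sensing transcription factor genes MLXIP and MLXIPL were followed through RNA sequencing of colorectal cancer spheroids. The genes were named by symbol, and 6 of the 7 were matched by Ensembl identifier to 1 row each of the 54127 genes counted. For TXNIP, the identifier that the reference tables give matched no row, so its expression was not analysed here, and the data may hold it under another identifier. The set was selected on the comparison of label-retaining cells (LRCs) with non-LRCs, in which ARRDC3 was already known to be among the genes that differed most, so LRC values of these 6 genes are given as a description with no test.

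CFSE is a dye that binds covalently to cellular protein and is diluted at each division, so that cells which divide little keep it. In the study, 6 human colorectal cancer cell lines were labelled with CFSE, grown as nonadherent spheroids in serum-free medium with EGF and bFGF, and sorted on day 6 by flow cytometry into LRCs, the dormant fraction, and non-LRCs, the cycling bulk. HT55 and SW948 represent colon cancer subtype CCS1, RKO and SW48 represent CCS2, and DLD1 and HCT15 represent CCS3, and each line gave 4 LRC and 4 non-LRC samples. A further 16 bulk DLD1 samples served as controls for the dye and the culture, 4 each with CFSE or without it (labelled DMSO, unlabeled below) on day 1 and on a later day, which the sample labels give as day 5 and the description of the design gives as day 6. The labels give spheroid culture for all 64 samples, all came from established tumour lines, and the sorted ones all carried CFSE. The study's methods call the 4 replicates biological, and p-values below measure the spread between them. For LRCs against non-LRCs over all lines a common LRC effect was fitted, so the spread there also holds differences in that effect between lines. The main fit did not pair same-numbered samples.

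Alpha-arrestins are cytoplasmic adaptor proteins with an arrestin fold. Their PPxY motifs recruit NEDD4-family ubiquitin ligases to receptors and transporters, which are then internalised. TXNIP binds thioredoxin and promotes removal of the glucose transporters GLUT1 and GLUT4 from the cell surface, and ARRDC4 also lowers glucose uptake. MLXIP, also called MondoA, and MLXIPL, also called ChREBP, pair with MLX, bind carbohydrate response elements and raise transcription of TXNIP and ARRDC4 when glucose-6-phosphate accumulates, and ChREBP drives glycolytic and lipogenic genes in liver, fat and intestine.

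Because MLXIP and MLXIPL bind paired E-boxes, promoters were searched for E-boxes and for pairs of them. The stretches shown hold an E-box for ARRDC4, whose values follow and where no pair was found. For TXNIP, whose expression was not analysed here, the stretch holds a pair. RefSeq promoters of the build GRCh38.p14, reaching from 250 bases before a transcription start to 50 after it, were found for all 7 genes, 10 promoters in total. The E-box CACGTG, which reads the same on both strands, occurred in 1 of these 10, that of ARRDC4, and in 7.26% of 35116 RefSeq promoters. A pair of looser E-boxes, each CACGNG or its complement CNCGTG and 5 bases apart, occurred on either strand in 1 of the 10, that of TXNIP, and in 0.0769% of all promoters. A CACGTG can also form part of such a pair. In the sequences, written 5′ to 3′ along the gene's strand, capitals mark the E-box of ARRDC4 (chr15:97960471-97960520, plus strand, bases -232 to -183 from the start) and both looser E-boxes of TXNIP (chr1:145996629-145996689, minus strand, bases -110 to -50).
ARRDC4: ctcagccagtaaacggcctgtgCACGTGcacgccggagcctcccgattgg
TXNIP: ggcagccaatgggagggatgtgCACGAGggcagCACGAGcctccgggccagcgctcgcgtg
No search was made outside these windows, and a match marks letters only.

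Reads assigned to genes ranged from 12237225 to 20913455 per sample (median 15063858). Values are given as CPM, read counts scaled to a common library size, after TMM scaling over all 64 samples, and log2 fold changes come from edgeR. The 12 colorectal epithelial markers summed to 2700 CPM or more in every sorted sample of 5 lines, but to only 217.8 to 326.1 CPM in RKO. KRT8 alone had a median of 1210 CPM in SW48. Markers under 1 CPM in every sample numbered 5 of 12 in RKO, 3 in SW48 and 1 each in DLD1 and HCT15. Among 11 measured markers of fibroblasts, endothelium and blood cells, CD68 reached 1570 CPM, in RKO, and PTPRC reached 22.1 CPM, in SW48, while CD3E was at 0 in all 64 samples. One library stood against its label: that labelled unlabeled day 1 replicate 4 was closest to unlabeled late replicate 3 (Pearson r = 0.9931 of log2 CPM over genes) and less close to any of its own group (best r = 0.9788), and control results below are also given without it. In SW948, the library labelled LRC replicate 4 was closest to a non-LRC sample (r = 0.9950, against 0.9890 at best in its own group), and for HT55 and SW48 the LRC and non-LRC libraries of replicate 2 were closest to each other.

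The first comparison asked how the genes differ between dormant and cycling cells. ARRDC3 had the largest difference of the 6, with a log2 fold change over all lines of 0.64 (SE 0.14), and ARRDC4 followed at 0.41 (SE 0.10). ARRDC1 was slightly lower in LRCs at -0.13 (SE 0.04), as was MLXIPL at -0.18 (SE 0.10). ARRDC2 at 0.06 (SE 0.05) and MLXIP at -0.01 (SE 0.05) lay near the median of all tested genes, 0.01. For scale, 22.9% of the 16603 genes tested differed between LRCs and non-LRCs at an adjusted p under 0.05, 12.2% higher and 10.7% lower, and since this contrast chose the set, nothing is read from the members against that share.

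ARRDC3, an adaptor for the beta-2 adrenergic receptor and for integrin beta-4, stood higher in LRCs in 16 of 16 same-numbered LRC and non-LRC samples of HT55, SW48, DLD1 and HCT15, the 4 lines whose numbers pair the samples. The difference was widest in SW948, a CCS1 line. There the LRC samples held 98.9, 89.0, 50.5 and 15.9 CPM in replicates 1 to 4 and the non-LRC samples 28.9, 26.6, 18.5 and 13.6 CPM. Replicates 1 to 3 of the LRCs lay above every non-LRC sample, whereas the library labelled LRC replicate 4 lay inside the non-LRC range. The log2 fold change was 1.54 (SE 0.41) in SW948, and 1.87 without that library. Over all lines it was 0.67 without that library.

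In RKO, the line with the highest ARRDC3 level, LRCs held 125, 122, 93.0 and 122 CPM and non-LRCs 89.6, 97.8, 69.5 and 78.2 CPM. The groups overlapped through LRC replicate 3. SW48 LRCs held 39.5, 49.9, 75.1 and 34.03 CPM against 22.9, 24.8, 59.9 and 25.3 CPM in non-LRCs. Replicate 3 was the highest of both SW48 groups, and without regard to number the groups overlapped. DLD1 had the lowest ARRDC3 of the panel, at 13.8, 19.8, 12.5 and 11.8 CPM in LRCs and 10.01, 12.6, 10.01 and 8.68 CPM in non-LRCs. HCT15 LRCs held 66.2, 76.3, 57.2 and 50.5 CPM and non-LRCs 46.7, 57.2, 33.7 and 35.8 CPM. In HT55 the difference was smallest, with 46.1, 56.5, 46.2 and 39.6 CPM in LRCs and 42.8, 51.6, 33.97 and 33.6 CPM in non-LRCs. LRC and non-LRC values overlapped in all 6 lines, and in HT55, DLD1, HCT15 and SW48, where same-numbered samples varied together across the transcriptome, the replicate number carried much of the spread. The log2 fold changes in these lines were 0.47 (SE 0.11) in RKO, 0.58 (SE 0.33) in SW48, 0.51 (SE 0.17) in DLD1, 0.55 (SE 0.17) in HCT15 and 0.22 (SE 0.15) in HT55.

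**Figure D1:**
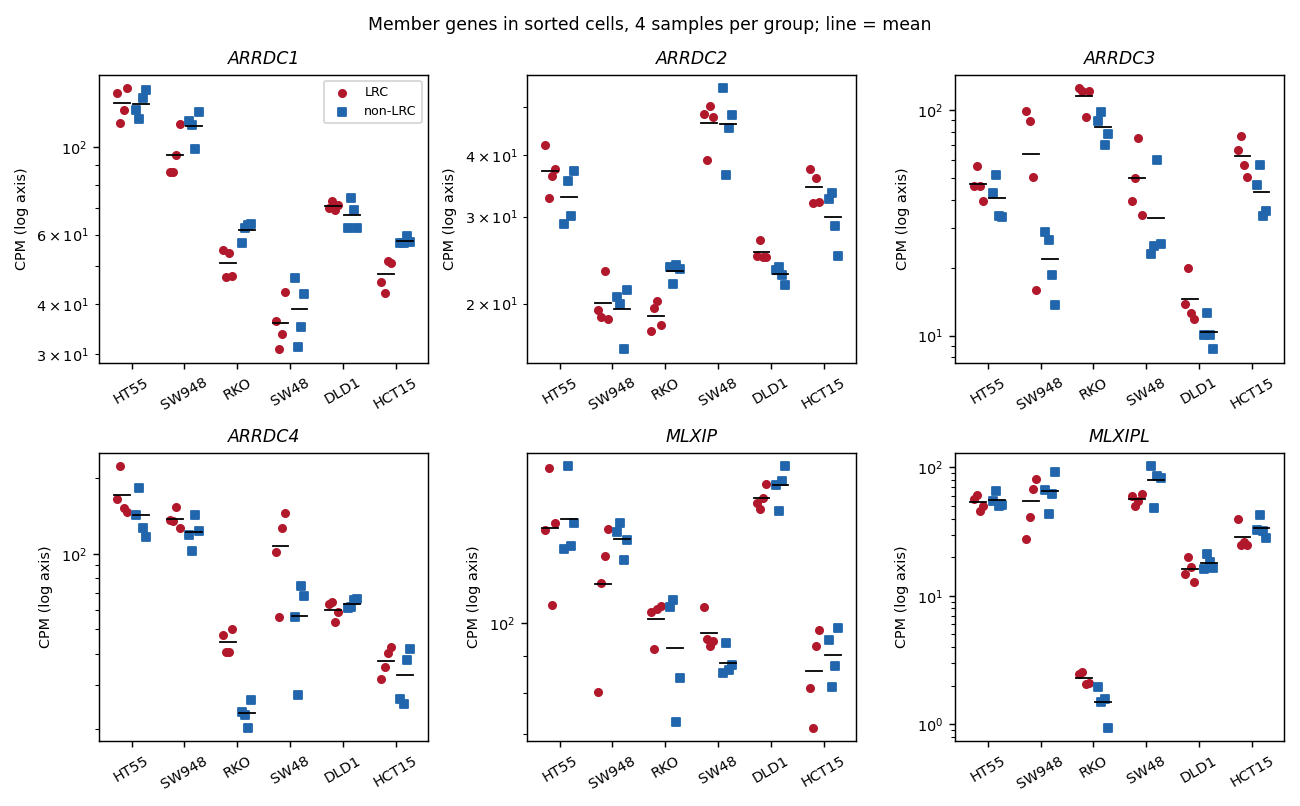
CPM on a log axis for each of the 6 genes in sorted LRCs (red circles) and non-LRCs (blue squares) of 6 lines, 4 samples per group, with a black line at each mean. ARRDC3 in SW948 shows 3 LRC samples between 50.5 and 98.9 CPM and 1 at 15.9 CPM, and MLXIPL in RKO lies under 3 CPM in every sample.

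ARRDC4, which shares with TXNIP both the arrestin fold and regulation by MondoA, had its largest differences in RKO and SW48. In RKO the LRCs held 47.5, 40.6, 40.5 and 50.1 CPM and the non-LRCs 23.4, 22.9, 20.3 and 26.3 CPM, so that every LRC sample lay above every non-LRC sample. In SW48 the LRCs held 102, 56.1, 127 and 145 CPM and the non-LRCs 56.2, 27.4, 74.5 and 68.2 CPM, with replicate 2 the lowest of both groups. The SW48 groups overlapped only through that replicate, and each LRC sample exceeded its same-numbered partner. The log2 fold changes were 0.95 (SE 0.10) in RKO and 0.94 (SE 0.32) in SW48. Between LRCs and non-LRCs edgeR called 5279 of 12731 genes in RKO and 105 of 13196 in SW48. How many of all genes had groups without overlap was not counted.

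In the other lines ARRDC4 differed less. HT55 LRCs held 166, 224, 152 and 147 CPM against 143, 184, 127 and 117 CPM, and SW948 LRCs held 136, 135, 153 and 127 CPM against 119, 103, 143 and 123 CPM. HCT15 LRCs held 31.7, 35.6, 40.5 and 42.5 CPM against 26.5, 25.2, 37.9 and 41.7 CPM. DLD1 LRCs held 63.3, 64.4, 53.8 and 58.6 CPM against 60.9, 61.5, 65.4 and 65.98 CPM. In the 4 lines whose numbers pair the samples ARRDC4 was higher in LRCs in 14 of 16 same-numbered samples, and both exceptions were in DLD1. The log2 fold changes were 0.28 (SE 0.16) in HT55, 0.18 (SE 0.10) in SW948, 0.21 (SE 0.17) in HCT15 and -0.06 (SE 0.06) in DLD1. The order of the lines therefore differed between ARRDC3, for which SW948 was widest, and ARRDC4, for which RKO and SW48 were, and the difference between lines was not tested.

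**Figure D2:**
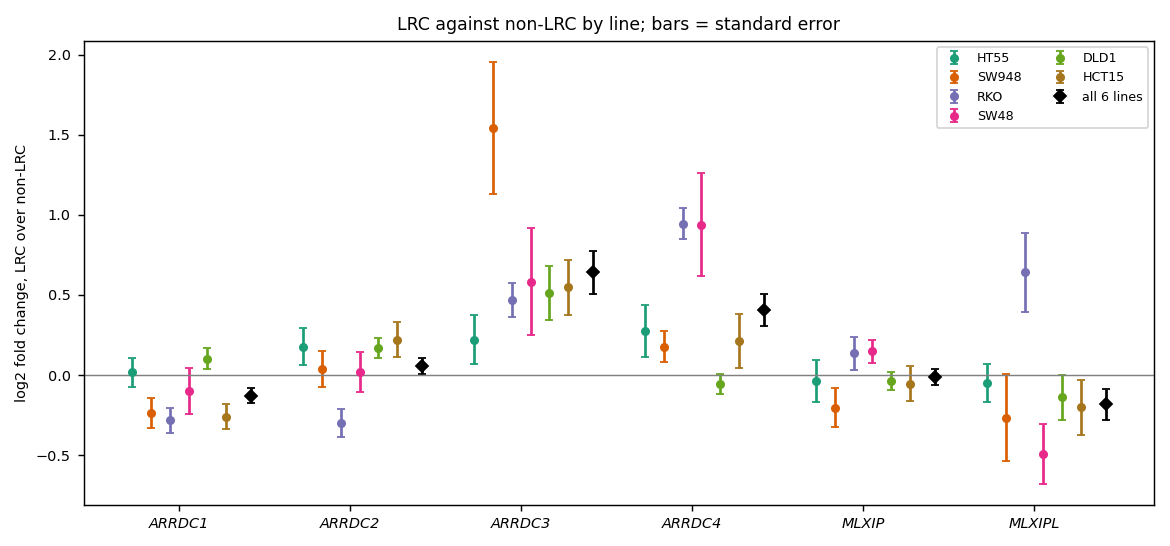
Log2 fold change of LRCs over non-LRCs with its standard error for each gene, in each line (coloured circles) and over all 6 lines (black diamonds). ARRDC3 lies above 0 in all 6 lines, with SW948 at 1.54, while ARRDC4 reaches 0.95 in RKO and 0.94 in SW48 and lies at -0.06 in DLD1.

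ARRDC1, which recruits TSG101 and drives budding of vesicles from the plasma membrane, was higher in LRCs in 5 of 16 same-numbered samples of the 4 lines whose numbers pair them. In HCT15 its LRCs held 45.6, 42.8, 51.4 and 50.8 CPM and its non-LRCs 57.1, 57.1, 59.6 and 57.5 CPM, and in RKO the LRCs held 54.9, 47.0, 54.1 and 47.2 CPM and the non-LRCs 57.04, 62.2, 63.6 and 63.9 CPM. In both lines every LRC sample lay below every non-LRC sample. The log2 fold changes there were -0.26 (SE 0.08) and -0.28 (SE 0.08), and in SW948 it was -0.24 (SE 0.10), while HT55, SW48 and DLD1 lay between -0.10 and 0.10. Between LRCs and non-LRCs edgeR called 137 of 14017 genes in HCT15 and 5279 of 12731 in RKO. Groups without overlap were not counted over all genes. The antisense gene ARRDC1-AS1 overlaps the end of ARRDC1 and had 3.82% to 26.4% of the ARRDC1 count per sample, and since the strand setting of the counting is not given in the sources used here, reads in the overlap cannot be told apart.

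ARRDC2, a less studied member of the family, went opposite ways in a pair of lines. RKO LRCs held 17.6, 19.6, 20.2 and 18.1 CPM, all below the non-LRCs at 23.7, 21.95, 23.9 and 23.5 CPM. DLD1 LRCs held 24.9, 27.0, 24.9 and 24.9 CPM, all above the non-LRCs at 23.4, 23.7, 22.8 and 21.8 CPM. The differences were small, at -0.30 (SE 0.09) and 0.17 (SE 0.06) on the log2 scale, and the remaining lines overlapped. Between LRCs and non-LRCs edgeR called 5279 of 12731 genes in RKO and 1978 of 13592 in DLD1. Groups without overlap were not counted over all genes.

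MLXIP, which encodes the sensor itself, overlapped between LRCs and non-LRCs in all 6 lines and ranged from -0.20 (SE 0.12) in SW948 to 0.15 (SE 0.07) in SW48. MLXIPL lay lower in LRCs in 5 lines, with 3 of 16 LRC samples higher than their partner in the 4 lines whose numbers pair the samples. In SW48 the LRCs held 60.4, 49.7, 54.98 and 61.6 CPM and the non-LRCs 103, 48.5, 86.5 and 83.3 CPM, a log2 fold change of -0.49 (SE 0.19). RKO was the exception at 0.64 (SE 0.25). There MLXIPL was barely expressed, with 2.45, 2.56, 2.05 and 2.11 CPM in LRCs and 1.95, 1.49, 1.57 and 0.939 CPM in non-LRCs, and its count fell as low as 15 reads in a sample.

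Levels were next compared between lines. All 6 genes passed the edgeR test for a difference between lines in non-LRCs, as did 98.3% of the 15779 genes tested, with adjusted p between 1.90e-15 for MLXIPL and 4.52e-09 for MLXIP. MLXIPL spanned the widest range, from 1.49 ± 0.418 CPM in RKO to 80.3 ± 22.9 CPM in SW48 (SD, n = 4), a ratio of 53.98. SW948 and HT55 followed SW48, and these 3 lines overlapped their neighbours, whereas HCT15, DLD1 and RKO each stood apart in that descending order. MLXIP varied least, from 88.1 ± 3.82 CPM in SW48 to 156 ± 9.28 CPM in DLD1, a ratio of 1.77. DLD1, HT55 and SW948 formed an overlapping upper set, and RKO, HCT15 and SW48 an overlapping lower set.

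Among the arrestins, ARRDC3 was highest in RKO at 83.8 ± 12.4 CPM, apart from the rest, and lowest in DLD1 at 10.3 ± 1.63 CPM, a ratio of 8.12. HCT15, HT55, SW48 and SW948 lay between them and each overlapped the next. ARRDC4 was highest in the CCS1 lines HT55 at 143 ± 29.5 CPM and SW948 at 122 ± 16.6 CPM and lowest in RKO at 23.2 ± 2.46 CPM, a ratio of 6.14. DLD1, SW48, HCT15 and RKO each overlapped the next line. ARRDC1 was also highest in HT55 and SW948, at 128 ± 9.71 and 113 ± 10.1 CPM, and lowest in SW48 at 38.8 ± 6.97 CPM, a ratio of 3.31. DLD1, RKO and HCT15 lay between 57.8 and 67.1 CPM and overlapped their neighbours. ARRDC2 was highest in SW48 at 46.1 ± 7.58 CPM and lowest in SW948 at 19.5 ± 2.31 CPM, a ratio of 2.36.

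Genes can be compared with each other only after division by length, here CPM per kilobase of annotated exon (RPKM). On that scale ARRDC4 and ARRDC1 led in HT55, at 35.1 and 33.9 RPKM in non-LRCs, and in SW948, at 30.1 and 29.8 RPKM. ARRDC1 led in DLD1 at 17.7 RPKM and in HCT15 at 15.3 RPKM, ARRDC3 in RKO at 16.8 RPKM, next to ARRDC1 at 16.3 RPKM, and MLXIPL in SW48 at 16.7 RPKM. ARRDC3 was the lowest of the 6 in DLD1, at 2.07 RPKM. MLXIP exceeded MLXIPL per length in DLD1, at 11.2 against 3.75 RPKM, and in RKO, at 6.65 against 0.309 RPKM, and MLXIPL exceeded MLXIP in the other 4 lines.

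**Figure D3:**
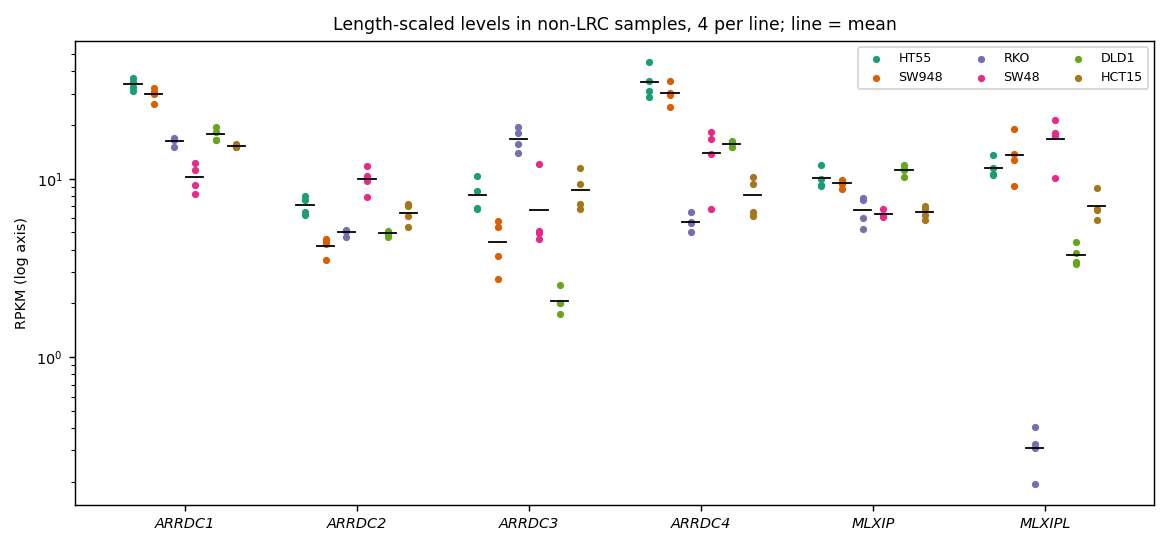
RPKM on a log axis in non-LRC samples of each line, 4 points per line and a black line at the mean. MLXIPL in RKO lies near 0.309 RPKM, far below its level in the other lines, while the line means of MLXIP lie between 6.34 and 11.2 RPKM.

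Genes most like each member were sought among 15537 named genes over the 48 sorted samples, after each line's mean was taken from log2 CPM. The samples share their line, sort and library preparation, so the values of r describe these libraries only. For ARRDC3 these were SERINC1 (r = 0.82) and MEF2A (r = 0.80), and for ARRDC4 FOXO3 (r = 0.88) and LETMD1 (r = 0.82). Across the 16 controls these 4 genes had r between -0.28 and 0.33 with their member. For ARRDC1 the most alike were SIGIRR (r = 0.83) and FASTK (r = 0.82), for ARRDC2 CEBPB (r = 0.76) and CCDC9 (r = 0.74), for MLXIP SIPA1L3 (r = 0.88) and FYCO1 (r = 0.81), and for MLXIPL DOCK6 (r = 0.79) and MAN2C1 (r = 0.78). In the controls r was 0.43 for both MLXIP neighbours and between 0.84 and 0.95 for those of ARRDC1, ARRDC2 and MLXIPL. ARRDC3 and ARRDC4 had r = 0.33 with each other in the sorted samples and r = 0.84 in the controls, and ARRDC1 and ARRDC3 had r = -0.62 and r = -0.52. The highest r between members in the controls was that of ARRDC1 and MLXIPL, at 0.96, against 0.265 in the sorted samples.

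Other genes of the pathway were tested between LRCs and non-LRCs in lists grouped by function. The lists were chosen with earlier results of these data known. Their p-values here and below may therefore not be independent of that choice. Of all genes 22.9% were called between LRCs and non-LRCs, 12.2% higher and 10.7% lower. The counts by list here and below were not tested against that share. Among 9 partners and rivals of MLXIP, 2 rose and 1 fell in LRCs. MXD1, a Max partner that opposes MYC, rose by 0.54 (SE 0.07, adjusted p = 1.32e-07) and its relative MXI1 by 0.27 (SE 0.07, adjusted p = 0.00205), while MYC fell by 0.24 (SE 0.07, adjusted p = 0.008). Of 23 glucose response genes 3 rose and 5 fell. Those that fell included fatty acid synthesis genes, ELOVL6 at -0.39 (SE 0.07, adjusted p = 3.61e-05), FASN at -0.30 (SE 0.06, adjusted p = 0.000184) and ACLY at -0.17 (SE 0.03, adjusted p = 0.000148), as well as the triokinase gene TKFC at -0.24 (SE 0.04, adjusted p = 1.6e-05). The list's median was 0.10, against 0.01 for all genes.

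Of 18 genes of glucose uptake and phosphorylation, 4 rose and 2 fell. SLC2A3, the glucose transporter GLUT3, rose by 1.11 (SE 0.17, adjusted p = 6.41e-06) and the transporter SLC2A12 by 0.55 (SE 0.09, adjusted p = 1.63e-05), as did hexokinase HK2 by 0.29 (SE 0.07, adjusted p = 0.00256), and the glucose-6-phosphatase subunit G6PC3 fell by 0.26 (SE 0.04, adjusted p = 6.19e-06). Of 21 thioredoxin system genes none rose and 9 fell, with a list median of -0.09, led by glutathione reductase GSR at -0.18 (SE 0.04, adjusted p = 0.000251), the peroxiredoxins PRDX3 at -0.22 (SE 0.05, adjusted p = 0.000254) and PRDX2 at -0.18 (SE 0.04, adjusted p = 0.00267), and TXNRD2 at -0.18 (SE 0.05, adjusted p = 0.00317). Of 22 NEDD4-family ligases and endosomal partners, 5 rose, among them the ligases SMURF1 at 0.20 (SE 0.04, adjusted p = 4.95e-05) and HECW1 at 0.67 (SE 0.16, adjusted p = 0.00165) and the insulin receptor INSR at 0.20 (SE 0.04, adjusted p = 0.000621), and 1 fell, WWP2 at -0.13 (SE 0.04, adjusted p = 0.0091). None of 6 other arrestin-fold genes was called by edgeR or DESeq2 and 0 were at an unadjusted p under 0.05, with VPS26B at -0.06 (SE 0.03, adjusted p = 0.15) and ARRB1 at -0.07 (SE 0.04, adjusted p = 0.183) nearest.

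Proliferation genes moved with the sort: 9 of 15 fell in LRCs, MCM2 by 0.28 (SE 0.07, adjusted p = 0.00182) among them, and their part in the values above was not tested. Of 12 epithelial markers 1 fell, VIL1 at -0.30 (SE 0.10, adjusted p = 0.0241), and of 4 tested markers of other cell types 1 rose, CD68 at 0.77 (SE 0.14, adjusted p = 4.22e-05). Without the library labelled SW948 LRC replicate 4, when 24.4% of all genes were called, the counts were the same except for 5 higher and 3 lower in glucose uptake, 10 lower in proliferation and 1 higher in the epithelial markers.

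The controls asked what time in culture and the dye do in DLD1 on their own. The set was selected on the comparison of LRCs with non-LRCs, with earlier results of these data known. The control p-values of the members may therefore not be independent of that choice. In the CFSE control groups replicates 1 and 2 differed from replicates 3 and 4 across the transcriptome, and ARRDC4 and MLXIPL showed that split there. The unlabeled groups did not divide that way, by root mean square differences of log2 CPM. Day 1 replicates 3 and 4 lay 0.572 apart, against 0.299 at least across the split. Late replicates 1 and 2 lay 0.372 apart, against 0.361. Values are given in replicate order, and results of all control comparisons also within replicates 1 and 2 and within replicates 3 and 4. The latter set holds the doubtful library. That split was chosen after these values were seen and leaves 2 samples per group, so its p-values serve as a description only. What replicates 1 and 2 share is not stated in the labels.

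MLXIPL fell with time in unlabeled cells. It stood at 72.4, 57.04, 71.4 and 38.9 CPM on day 1 and at 14.7, 16.6, 28.6 and 44.5 CPM on the late day. The groups overlapped only through the doubtful library at 38.9 CPM and late replicate 4. The log2 fold change was -1.24 (SE 0.39, edgeR adjusted p = 0.0322), and without that library -1.48 (SE 0.41, adjusted p = 0.00881). With replicate 1, 2 or 3 left out of every control group the call was lost, at adjusted p between 0.127 and 0.255. Of the 14518 genes tested 25.5% were called in this comparison, 13.1% lower and 12.4% higher, and MLXIPL was 1 of 6 members called.

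ARRDC1 and ARRDC2 also had lower late values in unlabeled cells, short of the threshold. ARRDC1 held 80.3, 71.8, 71.7 and 58.97 CPM on day 1 and 39.0, 48.5, 54.7 and 65.0 CPM late (log2 fold change -0.49, SE 0.18, edgeR adjusted p = 0.0529). ARRDC2 held 29.7, 32.3, 28.9 and 21.8 CPM on day 1 and 13.7, 21.0, 18.9 and 22.6 CPM late (-0.60, SE 0.23, adjusted p = 0.0630). Without the doubtful library both were called, ARRDC1 at -0.65 (SE 0.19, adjusted p = 0.0117) and ARRDC2 at -0.79 (SE 0.23, adjusted p = 0.0117), when 42.1% of all genes were called. ARRDC3 had no clear difference, at 36.4, 34.9, 34.6 and 25.3 CPM on day 1 and 55.5, 34.1, 26.5 and 17.9 CPM late (-0.02, SE 0.30). ARRDC4 was at -0.57 (SE 0.40, adjusted p = 0.284) and MLXIP at -0.07 (SE 0.19). Within replicates 1 and 2 all members but ARRDC3 were called, when 57.8% of all genes were. Within replicates 3 and 4 edgeR called none of the 6, with 1 at an unadjusted p under 0.05, and 0 of all genes, with 1676 at an unadjusted p under 0.05.

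With CFSE, 3 arrestin genes fell with time. ARRDC4 held 102, 92.4, 29.1 and 34.6 CPM on day 1 and 24.2, 26.2, 17.8 and 20.7 CPM late. Every day 1 sample lay above every late sample, and on day 1 replicates 1 and 2 lay far above replicates 3 and 4. The log2 fold change was -1.63 (SE 0.40, edgeR adjusted p = 0.00516). ARRDC2 went from 58.5, 68.1, 32.3 and 33.2 CPM to 22.4, 23.7, 23.8 and 19.1 CPM, again without overlap (-1.19, SE 0.23, adjusted p = 0.00121). How many of all genes had day 1 and late groups without overlap was not counted. ARRDC3 went from 79.4, 65.7, 34.3 and 36.6 CPM to 33.7, 40.9, 27.1 and 27.6 CPM (-0.82, SE 0.30, adjusted p = 0.0403), and late replicate 2 reached into the day 1 range. Its call was lost with replicate 1, 2 or 3 left out of every control group (adjusted p between 0.0667 and 0.106), while without the doubtful library it was at -0.83 (SE 0.30, adjusted p = 0.0322), ARRDC2 at -1.20 and ARRDC4 at -1.63, all called, as were 43.7% of all genes. In this comparison 39.3% of genes were called, 19.1% lower and 20.2% higher, so 3 of 6 members is not far from that share. Same-numbered CFSE samples of both days varied together across the transcriptome, and with the replicate number as a block 4 members were called, MLXIP being the added one at -0.45 (SE 0.16, adjusted p = 0.0375).

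In replicates 1 and 2, where 55.9% of all genes were called, the CFSE changes with time were -2.06 for ARRDC4, -1.57 for ARRDC2 and -1.07 for ARRDC3. In replicates 3 and 4, where 13.7% were called, they were -0.87 (adjusted p = 0.0278), -0.74 (adjusted p = 0.0473) and -0.51 (adjusted p = 0.125). Here MLXIPL went from 19.996, 13.1, 38.1 and 40.6 CPM to 14.4, 10.4, 28.7 and 21.5 CPM, a log2 fold change of -0.64 (SE 0.39, adjusted p = 0.208). Its replicates 3 and 4 lay above replicates 1 and 2 on both days, the opposite of ARRDC4. MLXIP was at -0.43 (SE 0.19, adjusted p = 0.0887) and ARRDC1 at -0.28 (SE 0.18, adjusted p = 0.229).

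**Figure D4:**
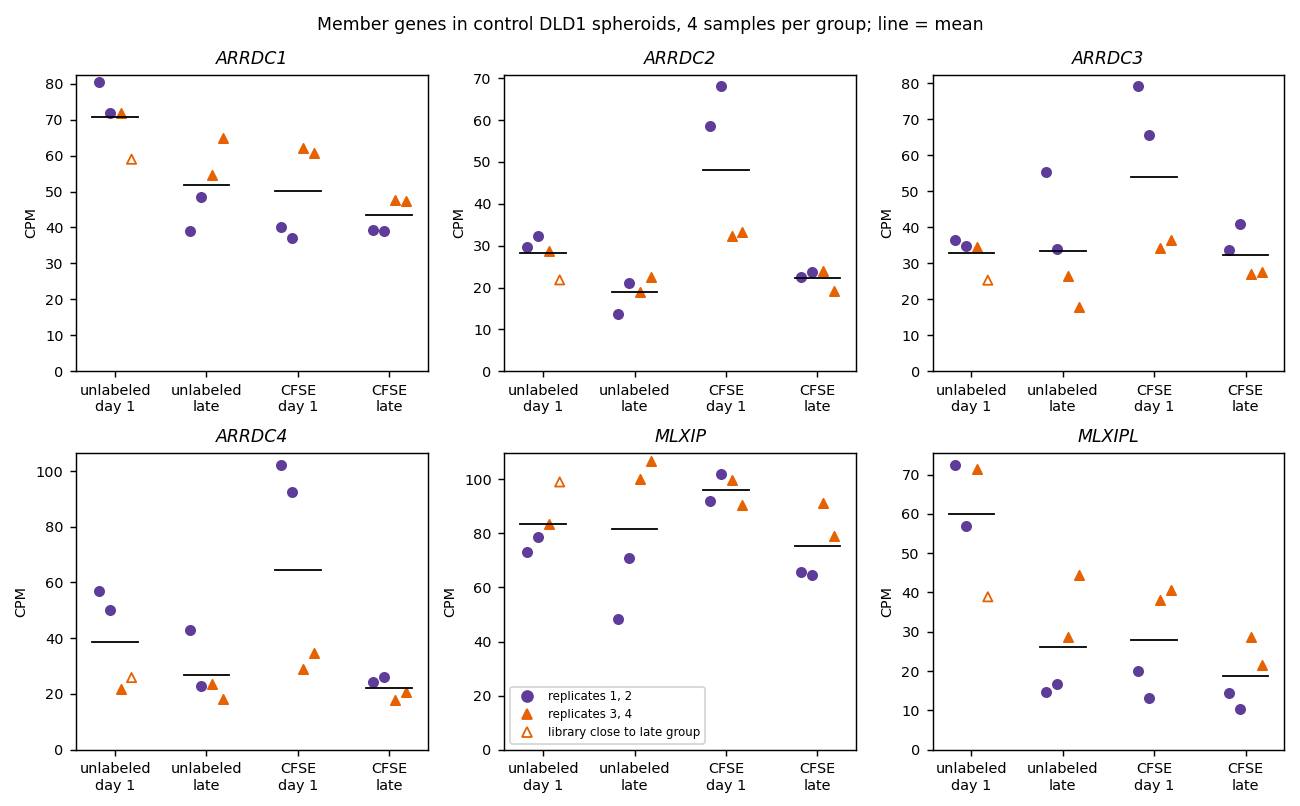
CPM of each gene in the 4 control groups of DLD1, with replicates 1 and 2 as purple circles, replicates 3 and 4 as orange triangles, a black line at the mean, and the doubtful library as an open triangle. On day 1 with CFSE, ARRDC4 lies at 92.4 and 102 CPM in replicates 1 and 2 and at 29.1 and 34.6 CPM in replicates 3 and 4.

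The dye was compared with no dye at each time. On day 1, ARRDC2 was higher with CFSE, at a mean of 48.04 ± 18.1 CPM against 28.2 ± 4.48 CPM (SD, n = 4; log2 fold change 0.81, SE 0.23, edgeR adjusted p = 0.0200). The CFSE samples overlapped the unlabeled ones by replicate 2 of the latter at 32.3 CPM, just reaching CFSE replicate 3. Of all genes 21.8% were called, 9.73% higher with the dye and 1749 of the 14518 lower. Without the doubtful library, when 2600 of 14450 genes were called, ARRDC2 was at 0.65 (SE 0.23, adjusted p = 0.0590) and no longer called, as was so with replicate 1 or 2 left out of every group (adjusted p = 0.107 and 0.138), while MLXIPL at -1.27 (SE 0.41, adjusted p = 0.0416) and ARRDC1 at -0.59 (SE 0.19, adjusted p = 0.0412) were. With all libraries these were -1.07 (SE 0.39, adjusted p = 0.0573) and -0.47 (SE 0.18, adjusted p = 0.0671), and ARRDC3 at 0.76 (SE 0.30, adjusted p = 0.0804), ARRDC4 at 0.79 (SE 0.39, adjusted p = 0.159) and MLXIP at 0.24 (SE 0.19, adjusted p = 0.399) were not called either. With the replicate number as a block, 5 members and 3808 of all genes were called.

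Within replicates 1 and 2 the dye effect on day 1 was called for 5 members and 48.8% of all genes, with ARRDC3 at 0.997 (SE 0.19, adjusted p = 0.00131) and MLXIPL at -1.995 (SE 0.21, adjusted p = 2.54e-05) at either end. Within replicates 3 and 4 edgeR called no member and 4.86% of all genes, and 1 member was at an unadjusted p under 0.05, with ARRDC3 at 0.29 (SE 0.21) and MLXIPL at -0.45 (SE 0.33).

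On the late day no member was called by edgeR, 0 were at an unadjusted p under 0.05, and DESeq2 called 0, when 5.13% of all genes were called by edgeR, 3.11% higher and 2.03% lower with CFSE. The largest difference was that of MLXIPL, at -0.48 (SE 0.40, adjusted p = 0.486), followed by ARRDC4 at -0.27 (SE 0.40). The values lay between -0.46 and 0.24 without the doubtful library. Within replicates 1 and 2 edgeR called no member, with 1 at an unadjusted p under 0.05, when 31.2% of all genes were called, and within replicates 3 and 4 it called none, with 2 at an unadjusted p under 0.05. The change with time was compared directly between dyed and undyed cells, and no member was called, 0 were at an unadjusted p under 0.05 and DESeq2 called 0, when 0.999% of all genes were called. ARRDC4 was at -1.06 (SE 0.56, edgeR adjusted p = 0.354) and ARRDC3 at -0.81 (SE 0.43, adjusted p = 0.355). Thus the falls of ARRDC2, ARRDC3 and ARRDC4 with CFSE were not shown to differ from the changes without it. Again no member was called without the doubtful library (ARRDC4 at -0.84, SE 0.57, adjusted p = 0.402), with 6.09% of all genes called. Within replicates 1 and 2 alone, where 34.6% of all genes were called, 4 members were, ARRDC3 at -1.24 (SE 0.27, adjusted p = 0.00533), ARRDC4 at -1.19 (SE 0.31, adjusted p = 0.0115), ARRDC1 at 0.86 (SE 0.18, adjusted p = 0.00426) and MLXIPL at 1.67 (SE 0.31, adjusted p = 0.00227), and within replicates 3 and 4 edgeR called no member, with 2 at an unadjusted p under 0.05, and 0.0144% of all genes.

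**Figure D5:**
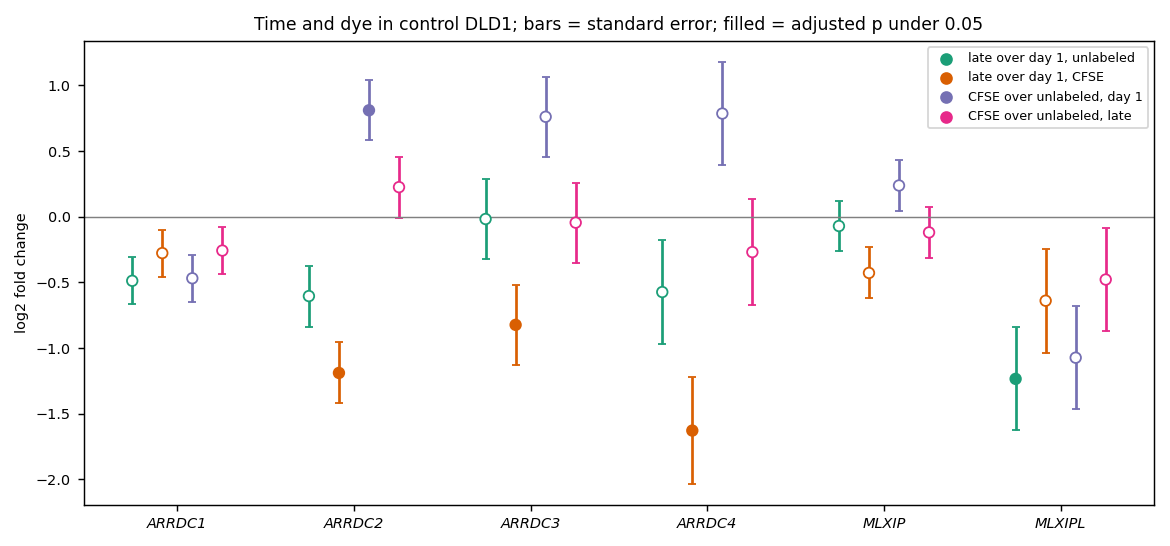
Log2 fold changes with standard errors for time (late over day 1, unlabeled and CFSE) and dye (CFSE over unlabeled, day 1 and late) in the DLD1 controls, filled where the adjusted p was under 0.05. ARRDC4 with CFSE lies lowest at -1.63, and no late-day dye difference is filled.

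In the controls the related genes moved as follows, and their counts by list were not tested against the share of all genes called. With time in unlabeled cells that share was 25.5%, 12.4% higher and 13.1% lower, and 42.1% without the doubtful library. With time in unlabeled cells, 3 of 19 glucose response genes rose and 2 fell, among them SLC16A3, a lactate exporter, at 1.08 (SE 0.31, edgeR adjusted p = 0.0218) and ELOVL6 at -0.46 (SE 0.15, adjusted p = 0.0359). SLC2A3 rose by 1.37 (SE 0.40, adjusted p = 0.0239) as 1 of 2 of 16 glucose uptake genes that rose, and 2 fell. MXI1 rose by 1.02 (SE 0.27, adjusted p = 0.0159), and 2 of the 9 MLXIP partners and rivals rose and 1 fell. Of 21 NEDD4-family ligases and endosomal partners 7 rose and 1 fell, INSR at 0.54 (SE 0.14, adjusted p = 0.0138) among them, of 21 thioredoxin genes 3 rose and 1 fell, and of 6 other arrestin-fold genes none was called by edgeR or DESeq2, with 2 at an unadjusted p under 0.05. Proliferation genes moved alongside, with 7 of 15 lower late, and 6 of 11 epithelial markers were higher. These were 14 of 15 and 8 of 11 without the doubtful library. The other counts without it were 3 higher and 4 lower for glucose response, 3 and 3 for glucose uptake, 3 and 1 for MLXIP partners and rivals, 8 and 2 for NEDD4-family genes, 4 and 2 for thioredoxin genes and 1 higher for other arrestin-fold genes.

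With time in CFSE cells, 12 of 21 thioredoxin genes rose and none fell, led by PRDX5 at 0.94 (SE 0.10, edgeR adjusted p = 3.08e-05) and PRDX2 at 0.90 (SE 0.12, adjusted p = 0.000119), and 8 of 16 glucose uptake genes rose and 2 fell. Of 19 glucose response genes 5 rose and 2 fell, the desaturase SCD at 1.75 (SE 0.30, adjusted p = 0.00049) and RGS16 at -2.42 (SE 0.49, adjusted p = 0.00158) among them, and MYC at -0.94 (SE 0.19, adjusted p = 0.0014) and MXD1 at -0.88 (SE 0.21, adjusted p = 0.00457) fell as 2 of 9. ARRB1 rose by 0.66 (SE 0.12, adjusted p = 0.000698) and ARRB2 fell by 0.59 (SE 0.13, adjusted p = 0.00282) among 2 higher and 1 lower of 6 arrestin-fold genes, and of 21 NEDD4-family genes 1 rose and 1 fell. Proliferation genes and epithelial markers rose in 5 of 15 and 7 of 11, and both tested markers of other cell types fell, CD68 at -1.56 (SE 0.33, adjusted p = 0.00216). These counts were the same without the doubtful library except for 3 lower in glucose response and 2 higher and 2 lower among NEDD4-family genes. Of all genes 39.3% were called with time in CFSE cells, 20.2% higher and 19.1% lower, and 43.7% without that library.

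The change with time was also compared directly between dyed and undyed cells for these lists. Of all genes 0.999% were called, and 6.09% without the doubtful library. EdgeR called 2 of 19 glucose response genes, ELOVL6 and SCD, and 1 of 15 proliferation genes, TOP2A, each with a higher change with CFSE. It called none of 21 thioredoxin genes, 9 MLXIP partners and rivals, 21 NEDD4-family genes, 6 other arrestin-fold genes and 11 epithelial markers, with 8, 3, 4, 1 and 2 at an unadjusted p under 0.05 and 4, 2, 0, 1 and 1 called by DESeq2. By edgeR with all libraries, these 5 lists were therefore not shown to differ in their change with and without the dye, and the calls by DESeq2 leave this dependent on the method. With the doubtful library left out 5 glucose response, 12 proliferation and 4 thioredoxin genes and 1 MLXIP partner or rival were called, each with a higher change with CFSE.

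With the dye on day 1, 1 of 21 thioredoxin genes was higher and 7 were lower, PRDX5 at -0.71 (SE 0.10, edgeR adjusted p = 0.000513) among them. Of 19 glucose response genes 4 were higher and 6 lower, SCD at -1.76 (SE 0.30, adjusted p = 0.00162) and RGS16 at 2.24 (SE 0.49, adjusted p = 0.00566) at the ends, of 16 glucose uptake genes 1 was higher and 3 lower, and of 9 MLXIP partners and rivals 3 were higher, MYC at 1.34 (SE 0.19, adjusted p = 0.000513) first, and 1 lower. NEDD4-family genes were higher in 4 and lower in 1 of 21, other arrestin-fold genes lower in 2 of 6 and proliferation genes higher in 1 and lower in 1 of 15. These dye values and the CFSE time values share the CFSE day 1 samples. Epithelial markers were lower with CFSE in 5 of 11, VIL1 at -2.34 (SE 0.32, adjusted p = 0.000403), and CD68 higher at 2.20 (SE 0.34, adjusted p = 0.00104), beside the arrestin values above, and their part in those was not tested. Without the doubtful library, which enters this comparison directly, glucose response genes were higher in 1 and lower in 7, glucose uptake genes lower in 4 and thioredoxin genes lower in 7, with none higher in the last of these lists or in glucose uptake. NEDD4-family genes were then higher in 5, proliferation genes lower in 1 and higher in none, and epithelial markers lower in 4, and the other counts were the same.

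On the late day 13 of 15 proliferation genes were higher with CFSE, CCNB1 at 0.86 (SE 0.14, edgeR adjusted p = 0.0161) first, and 2 of 21 thioredoxin genes were, TXNRD1 at 0.77 (SE 0.18, adjusted p = 0.0252) and TXN at 0.63 (SE 0.17, adjusted p = 0.0379). KLF11 was the 1 of 19 glucose response genes that was lower, at -0.71 (SE 0.19, adjusted p = 0.0412), and ARRB2 the 1 of 6 arrestin-fold genes that was lower, at -0.50 (SE 0.13, adjusted p = 0.0401). Of all genes 5.13% were called, 3.11% higher and 2.03% lower. No MLXIP partner or rival, NEDD4-family gene, epithelial marker or marker of other cell types was called by edgeR with all libraries, with 3, 2, 8 and 1 at an unadjusted p under 0.05 and 2, 0, 4 and 1 called by DESeq2. Without the doubtful library, when 13.3% of all genes were called, edgeR found 6 of the 11 epithelial markers and 2 of the 9 MLXIP partners and rivals lower with CFSE, 4 of the 21 thioredoxin genes and 1 of the 2 markers of other cell types higher, and 14 of the 15 proliferation genes higher. Glucose response genes were then higher in 1 and lower in 2 of 19, and the counts for NEDD4-family and other arrestin-fold genes were the same.

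DLD1 appeared in both experiments, as sorted CFSE cells and as bulk controls. ARRDC3 averaged 10.3 ± 1.63 CPM in sorted non-LRCs and 32.3 ± 6.43 CPM in late CFSE controls (SD, n = 4), and ARRDC4 63.4 ± 2.62 CPM and 22.2 ± 3.72 CPM. Sorting, the day and any difference in handling between the experiments cannot be told apart in these values, and they were not tested against each other.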

How the data were processed

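RNA from 48 sorted and 16 control samples was sequenced by the authors as single-end 50-base reads, aligned to hg19 and summarised as raw counts per Ensembl gene; the submitters' processing notes name TopHat, HTSeq and DESeq, and the versions and gene annotation are not given in the sources used here. The deposited counts were used as they stand. Summary rows that name no gene held 27.1% to 39.6% of the listed reads and were left out. Symbols were matched for 39260 of 54127 genes (72.5%), and positions and exon lengths came from GENCODE v44 lifted to GRCh37, the build of hg19, so RPKM may differ from one on the authors' annotation. In lists, ACACA, SRXN1 and PECAM1 were matched by no row.

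The filter kept genes that reached 10 counts in 4 or more samples, and edgeR 4.0.16 in R 4.3.3 gave the tests (TMM, quasi-likelihood F test, Benjamini-Hochberg over all genes tested, threshold 0.05). Each SE was derived from its test, as the absolute log2 fold change divided by the square root of F. LRCs were compared with non-LRCs with line as a covariate and in each line alone, levels between lines in non-LRCs, and the 4 control groups in 1 fit with 5 contrasts. DESeq2 1.42.0, RLE factors, library size scaling, other filters, a replicate block and fits without each replicate served as alternatives, and log2 CPM used a prior count of 2 (alternative 0.5). The fits without the doubtful libraries and within replicates 1 and 2 or 3 and 4 were added after the data were seen. Named genes were all members, up to 4 genes per list with the smallest p in each comparison, and the 2 genes with the highest r to each member. Values of 1 listed gene are not reported here. The members and lists were chosen with earlier results of these data known. Same-numbered LRC and non-LRC samples deviated together in every pair (r over 0.1) in HT55 (0.22 to 0.51), SW48 (0.19 to 0.61), DLD1 (0.25 to 0.50) and HCT15 (0.33 to 0.56) and between the CFSE controls of both days (0.16 to 0.29), but not in SW948 or RKO or between the other control groups. No sample pair was identical, and the lowest mean chi-square per gene of 96 replicate pairs was 2.19. In data simulated on 16603 genes for the LRC comparison with 200 genes changed by a log2 fold of 1, 100% were recovered and 6.54% of calls were false, and for time in unlabeled cells on 14518 genes 74.5% and 5.10%. The simulated controls shared a common mean per gene, without the split between replicates or the doubtful library. These rates may therefore not hold for the real controls.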

Additional observations from a re-analysis of the deposited data

Results flagged for a closer look

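In 6 of 96 groups of 4 replicates, 1 value of a member lay farther from the rest than Dixon's critical value allows, and chance alone gives about 1 in 20. These were ARRDC2 in DLD1 LRC replicate 2 (27.0 CPM, high), ARRDC3 in the library labelled unlabeled day 1 replicate 4 (25.3 CPM, low), in RKO LRC replicate 3 (93.0 CPM, low) and in SW48 non-LRC replicate 3 (59.9 CPM, high), MLXIP in RKO LRC replicate 2 (92.0 CPM, low) and MLXIPL in HCT15 LRC replicate 1 (39.5 CPM, high). ARRDC2 was lower in every RKO LRC sample than in every RKO non-LRC sample (log2 fold change -0.30) and higher in every DLD1 LRC sample (0.17), and this difference between lines was not tested. Of all genes edgeR called 5279 of 12731 between LRCs and non-LRCs in RKO and 1978 of 13592 in DLD1, and groups without overlap were not counted over all genes.

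In the controls, ELOVL6, SCD and TOP2A had a change with time that differed between dyed and undyed DLD1 cells by edgeR's test of that difference. The difference, CFSE minus unlabeled, was 1.05 for ELOVL6 (SE 0.21, adjusted p = 0.0314), 1.81 for SCD (SE 0.41, adjusted p = 0.0462) and 1.22 for TOP2A (SE 0.18, adjusted p = 0.00863). Without the doubtful unlabeled library these were 1.21 (SE 0.20, adjusted p = 0.00303), 1.92 (SE 0.44, adjusted p = 0.0174) and 1.34 (SE 0.18, adjusted p = 0.00175). The first is a fatty acid elongase, the second a desaturase and the last a topoisomerase of dividing cells.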

How the results depend on the processing

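No direction of a called member value was reversed. For LRCs against non-LRCs, all genes called numbered 3803, and 2243 to 4050 with 1 replicate or library left out. For time in unlabeled cells, 1 of 6 members was called, and 3 with RLE factors, without a filter, with 10 counts in every sample and by DESeq2, 2 with library size scaling, 0 to 3 with a replicate or library left out, 5 within replicates 1 and 2 and 0 within replicates 3 and 4; all genes called were 3695, 0 to 6378, 7915 and 0. For time with CFSE, all genes called were 5706, 2858 to 6312 with a replicate or library left out, and 1908 within replicates 3 and 4. For the dye on day 1, 1 member was called, 4 without a filter, 0 to 3 with a replicate or library left out, 5 within replicates 1 and 2 and 0 within replicates 3 and 4; all genes called were 3162, 338 to 3384, 6688 and 677. For the dye on the late day, all genes called were 745, 1521 by DESeq2, 0 to 1923 with a replicate or library left out, 4273 within replicates 1 and 2 and 2 within replicates 3 and 4. For the time effect with dye against without, they were 145, 89 with RLE factors, 85 with library size scaling, 454 without a filter, 623 by DESeq2, 0 to 1068 left out, 4739 within replicates 1 and 2, when 4 members were called, and 2 within replicates 3 and 4. Between lines they were 15512, and 10265 with 10 counts in every sample, a filter that tests fewer genes. Other causes were not tested. With the replicate block, 2 members were called for time in unlabeled cells and 5 for the dye on day 1, and 1511 genes for the dye on the late day. By the cut of r over 0.1 in every pair, control numbers paired the samples only between the CFSE groups of both days. There 4 members were called with the block against 3 without it. Between unlabeled and CFSE samples of the same number r was also positive, at 0.05 to 0.23 on day 1 and 0.06 to 0.51 late. The block moved no other count past 1.5 times. With 4 samples a group, MLXIPL in RKO, at 15 reads in the lowest sample, is the value depth limits most.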
